A study of Rattus norvegicus with 23 samples.

Results

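The 10 genes described here, Hspa5, Hsp90b1, Pdia4, Sdf2l1, Creld2, Manf, Dnajb9, Xbp1, Atf4 and Ddit3, belong to the endoplasmic reticulum stress response. They were chosen by name, with their levels in CPM (counts scaled by the effective library size) across the 6 organ-by-surgery groups in view, from 32552 gene identifiers, of which 15123 carry a symbol. Their own differences between surgeries are therefore descriptions with no test, while other genes of the same pathway were tested. RNA was sequenced from Sprague-Dawley hearts and kidneys at 13 weeks of age, 4 weeks after surgery. Sham rats had the sham procedure. NX rats had a 5/6th partial nephrectomy, in which most kidney tissue is removed. AVF+NX rats had the same nephrectomy and also an arteriovenous fistula, made by joining the end of the jugular vein to the side of the carotid artery. Each organ and surgery gave 4 libraries, except Sham heart with 3, and the labels do not match hearts to kidneys by animal. No group carries a fistula without nephrectomy, so the fistula is seen only on top of kidney loss.

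The endoplasmic reticulum folds secreted and membrane proteins. When unfolded proteins build up there, the sensors IRE1, PERK and ATF6 start the unfolded protein response. IRE1 splices the Xbp1 transcript into the form that encodes an active transcription factor. PERK slows translation and favours ATF4, which drives amino acid and redox genes and Ddit3, the gene of the death-linked factor CHOP. ATF6 and spliced XBP1 raise chaperones and folding enzymes. Plasma cells, proximal tubule cells and other secreting cells run parts of this programme without injury. Gene-level counts, as used here, do not separate spliced from unspliced Xbp1.

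Promoters are shown because ATF6 acts through the ER stress response element (ERSE), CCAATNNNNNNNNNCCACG. Sequences are from RefSeq (GRCr8), as the 250 bases before the start of each gene, 5′ to 3′ on the gene's strand. The search ran on both strands of windows that also hold the 50 bases after the start. RefSeq windows were matched by symbol for 9 of the 10 genes, all but Manf. The exact ERSE was found in Creld2, Hspa5, Hsp90b1 and Xbp1, against 22 of 33469 promoters in the table (0.0657%). In the first 4 lines the capitals mark that element, which lies on the plus strand of Hspa5 and Xbp1, on the minus strand of Creld2, and on both strands, at separate places, in Hsp90b1.
Hspa5, chr3:38452766-38453015, + strand: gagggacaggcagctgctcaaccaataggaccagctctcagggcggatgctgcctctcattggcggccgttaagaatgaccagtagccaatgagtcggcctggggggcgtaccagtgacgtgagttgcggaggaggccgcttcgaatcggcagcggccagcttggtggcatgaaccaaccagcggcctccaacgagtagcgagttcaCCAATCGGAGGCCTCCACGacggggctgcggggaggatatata
Hsp90b1, chr7:23012294-23012543, - strand: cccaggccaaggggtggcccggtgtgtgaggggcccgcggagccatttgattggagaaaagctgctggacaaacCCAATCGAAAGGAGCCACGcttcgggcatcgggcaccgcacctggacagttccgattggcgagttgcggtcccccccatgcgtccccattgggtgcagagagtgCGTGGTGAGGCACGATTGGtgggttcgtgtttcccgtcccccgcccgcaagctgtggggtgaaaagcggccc
Creld2, chr7:121789134-121789383, + strand: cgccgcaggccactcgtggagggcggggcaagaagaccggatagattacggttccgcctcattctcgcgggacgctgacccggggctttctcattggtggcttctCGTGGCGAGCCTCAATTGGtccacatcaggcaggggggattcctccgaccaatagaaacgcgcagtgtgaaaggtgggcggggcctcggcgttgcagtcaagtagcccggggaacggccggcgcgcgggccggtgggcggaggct
Xbp1, chr14:84604373-84604622, + strand: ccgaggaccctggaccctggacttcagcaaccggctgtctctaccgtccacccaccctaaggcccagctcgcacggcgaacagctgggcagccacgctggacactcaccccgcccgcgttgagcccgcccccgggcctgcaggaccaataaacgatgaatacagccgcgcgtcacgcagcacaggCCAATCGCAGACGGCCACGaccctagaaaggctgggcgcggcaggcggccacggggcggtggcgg
Sdf2l1, chr11:97376628-97376877, + strand: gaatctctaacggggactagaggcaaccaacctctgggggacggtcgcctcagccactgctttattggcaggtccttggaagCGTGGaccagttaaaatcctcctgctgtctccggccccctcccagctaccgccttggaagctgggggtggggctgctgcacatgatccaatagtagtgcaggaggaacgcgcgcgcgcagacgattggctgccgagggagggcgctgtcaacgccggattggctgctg
Pdia4, chr4:78153192-78153441, - strand: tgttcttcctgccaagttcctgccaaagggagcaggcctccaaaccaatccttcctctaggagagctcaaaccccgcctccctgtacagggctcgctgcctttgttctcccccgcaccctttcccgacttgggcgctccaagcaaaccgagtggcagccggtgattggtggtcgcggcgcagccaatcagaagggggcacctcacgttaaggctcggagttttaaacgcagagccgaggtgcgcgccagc
Sdf2l1 and Pdia4 are shown because they were among the genes furthest above NX in AVF+NX kidneys and had no exact ERSE. The capitals in Sdf2l1 mark a lone CCACG core on the minus strand, a 5-base match that 31.6% of all windows hold, and Pdia4 has none in the bases printed. The element started 43 bases before the start in Hspa5, 65 in Xbp1, 145 in Creld2, and 176 and 72 in Hsp90b1. The related ERSE-II was in 0 of the 9 windows and in 0.0508% of all. The UPRE core (TGACGTGG) was in 0 of 9 and in 0.595% of all, and the ATF4-type element (TGATGNAA) in 0 of 9 and in 3.98%. A match says only that these letters stand in the window.

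Libraries held 9069354 to 48079431 counts, and depth differed between the heart groups, at 9894716 to 11866042 in Sham and 11889483 to 48079431 in AVF+NX. Every one of the 10 genes was tested in both organs, and the lowest count of any of them in a library was 48, for Creld2. Summed cardiomyocyte markers (7 of 7 found) were at 56221 to 70603 CPM in hearts and at 13.1 to 27.1 CPM in kidneys, so each organ carried its own markers. A small-RNA index was computed as the mean log2 CPM, centred per gene, of genes whose symbol is an Rfam code (63 in heart, 90 in kidney). It was 0.79 to 0.84 in Sham hearts, -0.89 to -0.28 in AVF+NX hearts, and split the NX hearts into 1.00 and 0.67 against -1.02 and -0.62. Its value is given beside the heart results. The tissue was bulk, so fewer cells of a type and less RNA per cell cannot be told apart in any value below.

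In Sham tissue the chaperones led. Per kilobase of gene length, Hspa5 had the highest level of the 10 in kidney (224 CPM per kb) and in heart (170 CPM per kb). Hsp90b1 followed in both, at 207 CPM per kb in kidney and 86.4 in heart. The lowest were Sdf2l1 in kidney (11.4 CPM per kb) and Creld2 in heart (5.40 CPM per kb). Ranks between organs depend on how libraries are scaled. In Sham, Creld2, Pdia4, Hsp90b1 and Xbp1 were higher in kidney and Dnajb9 and Ddit3 had a higher mean in heart under both scalings. On CPM scaled over both organs together, Sham kidney had 2.00 times the Creld2 and 1.90 times the Pdia4 of Sham heart, with no overlap. On that scale Sham heart had 1.70 times the Dnajb9 and 2.29 times the Ddit3 of Sham kidney. With each organ scaled alone Dnajb9 and Ddit3 had means in the same order and ranges that overlapped. Hspa5 changed direction between the scalings, from 1.31 times higher in Sham kidney with organs scaled apart to 1.22 times higher in Sham heart with organs scaled together. All CPM below are scaled within the organ.

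**Figure D1:**
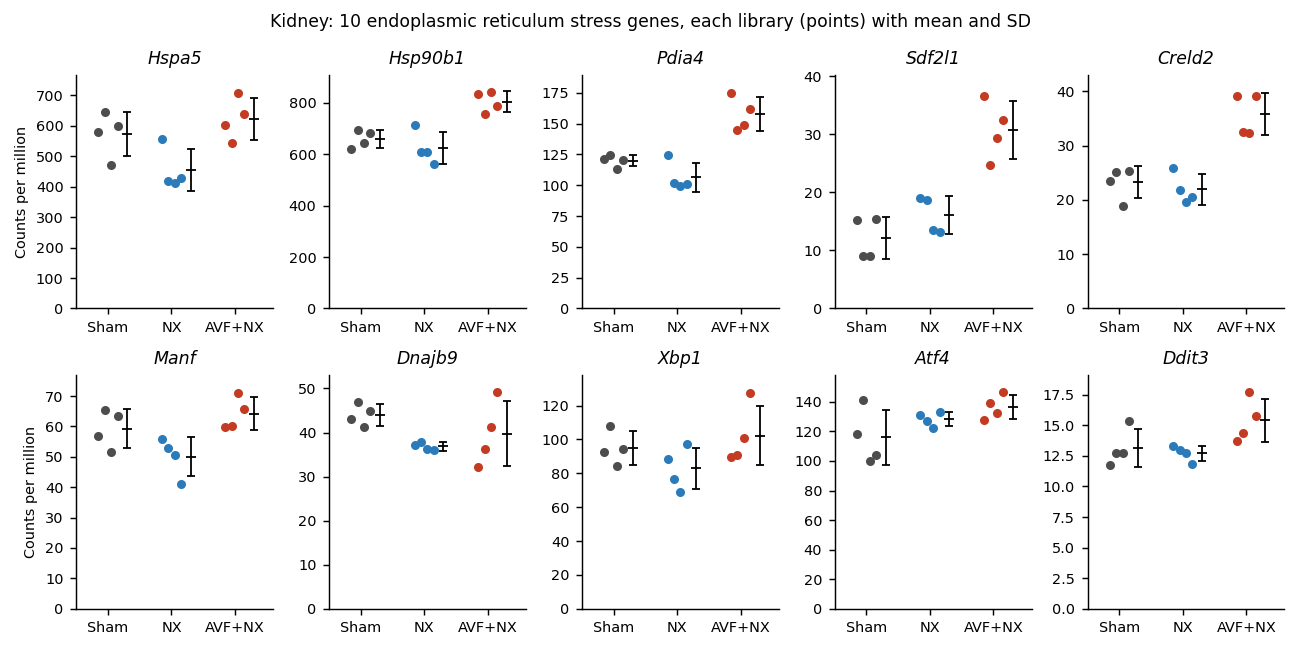
CPM of the 10 genes in each kidney library (points) by surgery, with the mean and SD beside each group (n = 4). Creld2, Pdia4, Sdf2l1 and Hsp90b1 show AVF+NX points above every NX and every Sham point.

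The kidney comparison of AVF+NX with NX asks what the added fistula was followed by in already reduced kidneys. All 10 genes had a higher fitted level in AVF+NX, with a median log2 fold change of 0.36, against -0.01 over all 14322 genes tested. Creld2, Pdia4, Hsp90b1, Sdf2l1, Manf and Ddit3 had AVF+NX ranges wholly above their NX ranges. The chaperone and folding genes Creld2, Pdia4, Hsp90b1 and Sdf2l1, were called in the fit across all genes (edgeR, adjusted p below 0.05), where 4.87% of all genes were called higher and 1.2% lower. As the genes were chosen with these values in view, nothing is read from those ranges or from that count. The 4 calls became 2 without AVF+NX replicate 1, AVF+NX replicate 4 or NX replicate 3. They became 0, at a median of 0.22, with the small-RNA index in the model. Over all genes, 698 higher and 172 lower calls became 295 and 29 without AVF+NX replicate 1. They became 401 and 48 without AVF+NX replicate 4, and 349 and 35 without NX replicate 3. With the index in the model they were 14 and 0.

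Sdf2l1 (ENSRNOG00000001859; chromosome 11, 88122271 to 88124513 in the files' own coordinates), which works with DNAJB11 to keep unfolded proteins soluble, had the largest difference. Its CPM was 36.6, 24.7, 29.3 and 32.5 in AVF+NX, 19.0, 18.7, 13.4 and 13.1 in NX, and 15.2, 8.95, 8.99 and 15.4 in Sham. Every AVF+NX kidney was above every other kidney, while NX and Sham overlapped. The fitted AVF+NX level was 1.92-fold the NX level (log2 0.94, SE 0.21) and 2.55-fold the Sham level (log2 1.35, SE 0.21).

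Creld2 (ENSRNOG00000004659; chromosome 7, 129812789 to 129819634), a secreted disulphide isomerase-like protein, also stood above both other groups. Its CPM was 39.1, 32.5, 32.2 and 39.1 in AVF+NX, 25.8, 21.8, 19.5 and 20.5 in NX, and 23.6, 25.1, 18.9 and 25.3 in Sham. The 4 AVF+NX kidneys stood apart, and NX lay over Sham. The level after AVF+NX was 1.63-fold that after NX (log2 0.71, SE 0.12) and 1.54-fold that of Sham (log2 0.62, SE 0.12).

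Pdia4 (ENSRNOG00000006228; chromosome 4, 77470636 to 77489535), also a disulphide isomerase, followed the same order. It was at 175, 145, 149 and 162 CPM in AVF+NX, at 124, 102, 99.5 and 101 in NX, and at 122, 124, 113 and 120.5 in Sham. NX replicate 1 was the high NX library and reached the Sham range, but not the AVF+NX range. The difference was 1.48-fold against NX (log2 0.57, SE 0.09) and 1.32-fold against Sham (log2 0.40, SE 0.09).

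The 2 abundant chaperones differed less. Hsp90b1 (ENSRNOG00000026963; chromosome 7, 27226569 to 27240533), which encodes GRP94, a chaperone of receptors and integrins, was at 832, 755, 841 and 785 CPM in AVF+NX, 714, 608, 610.1 and 563 in NX, and 620.1, 695, 642 and 684 in Sham. AVF+NX was again clear of both groups, at 1.29-fold NX (log2 0.37, SE 0.09) and 1.22-fold Sham (log2 0.28, SE 0.09). Hspa5 (ENSRNOG00000018294; chromosome 3, 13838304 to 13842762), which encodes BiP, the chaperone that holds the 3 sensors inactive, was at 602, 545, 709 and 638 CPM in AVF+NX, 557, 417, 413 and 429 in NX, and 579, 645, 472 and 598 in Sham. NX replicate 1 lay inside the AVF+NX range, and AVF+NX overlapped Sham. Hspa5 was 1.37-fold NX (log2 0.46, SE 0.13) and 1.09-fold Sham (log2 0.12, SE 0.13). Pdia4 and Hsp90b1 each contain a small unnamed gene on their own strand, with at most a stray count. How reads over both genes were counted is not known, so such reads may be missing from their values.

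Manf and Dnajb9 differed less from Sham. Manf (ENSRNOG00000014201; chromosome 8, 115623178 to 115626380), a secreted stress-induced survival factor, was at 59.8, 60.1, 71.1 and 65.8 CPM in AVF+NX, 55.8, 52.8, 50.6 and 41.0 in NX, and 56.8, 65.4, 51.6 and 63.6 in Sham. AVF+NX lay above NX without overlap, at 1.29-fold (log2 0.36, SE 0.11), and within reach of Sham. Dnajb9 (ENSRNOG00000004006; chromosome 6, 64165913 to 64170151), which encodes ERdj4, a BiP cofactor that restrains IRE1, was at 32.3, 36.3, 41.3 and 49.2 CPM in AVF+NX, 37.3, 37.9, 36.2 and 35.9 in NX, and 43.0, 46.9, 41.2 and 44.8 in Sham. NX lay wholly below Sham (log2 -0.26, SE 0.11), and AVF+NX spanned both groups.

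The transcription factors overlapped in most comparisons. Xbp1 (ENSRNOG00000010298; chromosome 14, 85753760 to 85758145) was at 89.8, 90.8, 101 and 127 CPM in AVF+NX, 88.4, 76.7, 69.2 and 97.0 in NX, and 92.3, 108, 84.2 and 94.5 in Sham. Its 3 ranges overlapped, at a log2 fold change of 0.30 (SE 0.13) against NX and 0.11 (SE 0.13) against Sham. Atf4 (ENSRNOG00000017801; chromosome 7, 121480723 to 121482772) was at 127, 139, 132 and 147 CPM in AVF+NX, 131, 127, 122 and 133 in NX, and 118, 141, 100 and 104 in Sham, with all groups overlapping. Ddit3 (ENSRNOG00000006789; chromosome 7, 70580198 to 70585084) was at 13.7, 14.4, 17.7 and 15.8 CPM in AVF+NX, 13.3, 13.0, 12.8 and 11.8 in NX, and 11.8, 12.7, 12.7 and 15.4 in Sham. AVF+NX was just clear of NX, at 1.21-fold (log2 0.28, SE 0.12), and overlapped Sham. Ddit3 overlaps Mars on the other strand, and as the strand setting of the counting is not given, its level is uncertain.

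After nephrectomy alone, 8 of the 10 genes had a fitted kidney level below Sham and 2 had one above it. The median log2 fold change of the 10 genes in NX against Sham was -0.13, and 0 were called by edgeR, with 3 at an unadjusted p below 0.05 and 0 by DESeq2 or limma voom. Among all genes 0.859% were called higher and 0.447% lower. Sdf2l1 was the gene with the highest value (log2 0.41, SE 0.21) and Hspa5 the one with the lowest (log2 -0.34, SE 0.13). For AVF+NX against Sham the median was 0.23 and 4 genes were called, all higher (Creld2, Pdia4, Hsp90b1 and Sdf2l1), against 15.9% of all genes called higher and 9.18% lower. These 3 comparisons share libraries. Nothing is read from the counts of calls among the 10 genes, which were chosen with these values in view.

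**Figure D2:**
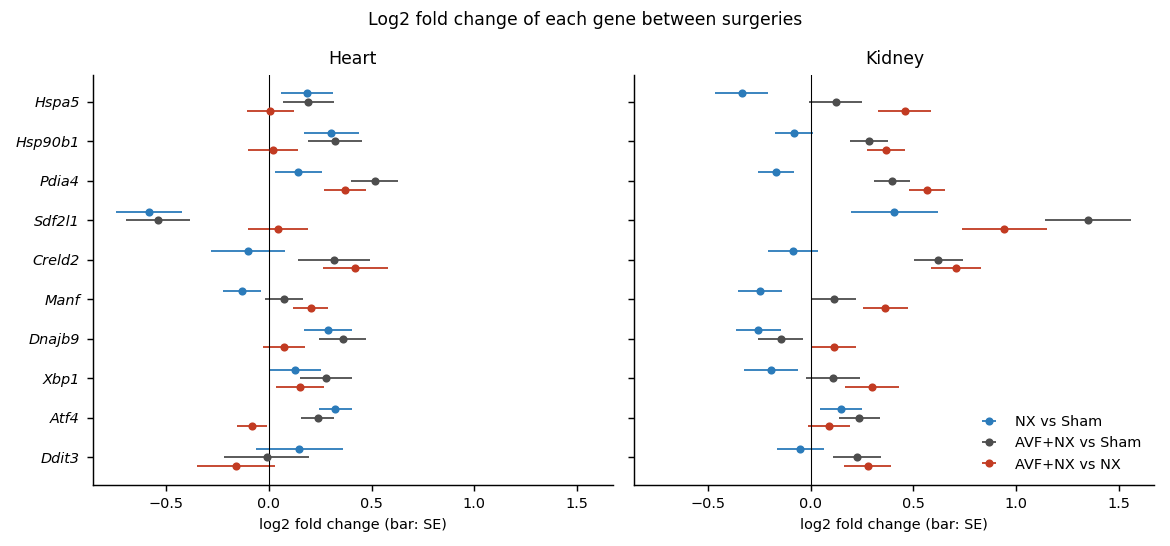
Fitted log2 fold change of each gene (points) with its standard error (bars) for the 3 comparisons in heart (left) and kidney (right). Sdf2l1 lies at -0.54 in heart and 1.35 in kidney for AVF+NX against Sham, and the red AVF+NX against NX points in kidney all lie above 0.

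Marker RNA of several cell types differed between the kidney groups. Summed plasma and B cell markers (10 of 11 found) were at 25.3, 29.0, 32.0 and 28.6 CPM in Sham, 186, 193, 44.1 and 223 in NX, and 926, 1430, 965 and 2698 in AVF+NX, so the groups did not overlap. Only 1 of those markers, Ms4a1, was at 0, in Sham. Between AVF+NX and NX, 10 of 10 of these markers rose in the edgeR test. Summed macrophage markers were at 318 to 406 CPM in Sham, 391 to 1218 in NX and 1257 to 2812 in AVF+NX. Fibroblast markers were at 603 to 894, 1007 to 3281 and 3045 to 6977 CPM, and proximal tubule markers at 18283 to 22172, 12700 to 20070 and 10995 to 15731 CPM. The part of these cells in the levels of the 10 genes was not tested. Within AVF+NX, replicate 4 had the highest plasma and B cell sum and the highest Xbp1 and Dnajb9. Replicate 1, with the lowest sum, had the highest Sdf2l1 and Pdia4. Among AVF+NX kidneys, replicate 1 also had the highest macrophage, fibroblast and T and NK cell sums (2812, 6977 and 220 CPM). Its proximal tubule sum was the lowest of that group (10995 CPM). Creld2 was at 39.1 CPM in replicates 1 and 4. The small-RNA index was -0.25 to 0.00 in NX kidneys, -0.18 in AVF+NX replicate 2, and 0.20, 0.41 and 0.24 in AVF+NX replicates 1, 3 and 4. Its part in these levels was not tested apart from the model with the index given above.

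**Figure D3:**
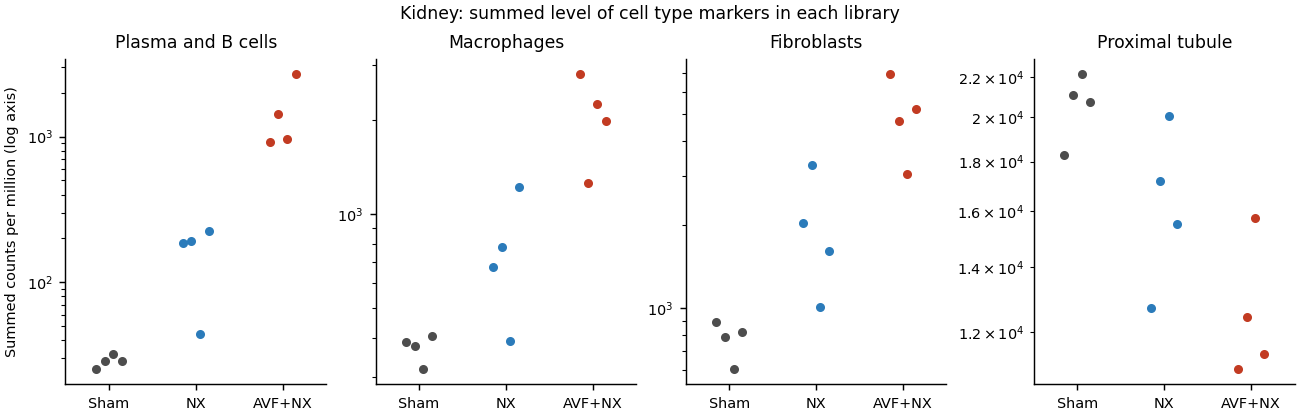
Summed CPM of 4 marker lists in each kidney library (points, log axis) by surgery. Plasma and B cell sums run from 25.3 to 32.0 in Sham and from 926 to 2698 in AVF+NX, and proximal tubule sums are lower in AVF+NX than in Sham.

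Of 136 other pathway genes tested in kidney, 4 were called between AVF+NX and NX (3 rose and 1 fell), where 4.87% of all genes rose and 1.2% fell, and their median log2 fold change was 0.06. In the list of other folding and redox genes, 2 of 25 rose and 0 fell. Pdia6, a disulphide isomerase, rose from 157 ± 14.1 to 193 ± 8.77 CPM (SD, n = 4 each; log2 0.30, edgeR adjusted p = 0.0375). Txndc5, another one, rose from 79.0 ± 14.2 to 125 ± 30.5 CPM (log2 0.66, edgeR adjusted p = 0.0391). In the translocation and transport list, 1 of 35 rose: Ssr4, a subunit at the protein translocation channel, went from 52.7 ± 2.53 to 66.3 ± 5.28 CPM (log2 0.33, edgeR adjusted p = 0.019). Psat1, a serine synthesis enzyme, was the 1 of 28 ATF4 and CHOP targets called, and it fell (log2 -0.66, edgeR adjusted p = 0.0446). The degradation, sensor, cell death and cytosolic chaperone lists had 0 calls here, within 28 pathway genes at an unadjusted p below 0.05, 11 called by DESeq2 and 4 by limma voom. DESeq2 called 1151 of all genes higher and 370 lower. The 4 edgeR calls were all lost when AVF+NX replicate 1 or replicate 4 was left out, and in a fit of only the 2 groups. Over all genes, 698 higher and 172 lower edgeR calls became 295 and 29, 401 and 48, and 235 and 32 in those fits.

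Several well known targets did not pass. Calreticulin (Calr) had 943 ± 48.6 CPM after AVF+NX and 769 ± 138 after NX (log2 0.30, SE 0.12). Hyou1, a large chaperone, had 260 ± 19.9 and 212 ± 25.4 CPM (log2 0.29, SE 0.10). Dnajb11 and Herpud1, a degradation factor, had log2 fold changes of 0.15 (SE 0.09) and 0.20 (SE 0.17). The sensors Atf6, Ern1 (IRE1) and Eif2ak3 (PERK) were at -0.01, -0.02 and 0.08. The CHOP-branch genes Atf3, Ppp1r15a, Asns and Trib3 were at 1.14 (SE 0.38), 0.44 (SE 0.19), 0.19 (SE 0.18) and 0.33 (SE 0.33).

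Against Sham, 17 of the 136 genes rose and 11 fell in AVF+NX kidneys, where 15.9% of all genes rose and 9.18% fell, so their count was not above that of all genes. Folding genes rose in 2 of 25 (Pdia6, log2 0.37, and Txndc5, log2 0.92) and fell in 0. ATF4 and CHOP targets rose in 6 of 28 and fell in 3. The largest was Slc7a11, the cystine importer, from 0.111 ± 0.102 to 7.44 ± 3.44 CPM (edgeR adjusted p = 2.9e-04), and Atf3 rose from 12.5 ± 6.12 to 27.9 ± 9.02 CPM (edgeR adjusted p = 0.042). Psat1, Phgdh and Sesn2 fell. Sensors and regulators rose in 1 of 17 (Bak1, log2 0.66) and fell in 3, among them Eif2ak3, from 72.4 ± 2.07 to 57.5 ± 7.14 CPM (edgeR adjusted p = 0.0144). The cell death list rose in 4 of 8, among them Casp12 (log2 1.52), and fell in 1, Itpr1, an ER calcium channel (log2 -0.44). Degradation genes rose in 1 of 23 and fell in 3, translocation genes rose in 3 of 35 and fell in 1, and cytosolic and mitochondrial chaperones rose in 0 of 15 and fell in 2 (Hspa8 and Clpp).

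After NX alone 3 of 136 kidney pathway genes were called (1 rose and 2 fell), where 0.859% of all genes rose and 0.447% fell. Eif2ak3 fell from 72.4 ± 2.07 to 54.2 ± 3.44 CPM (log2 -0.42, edgeR adjusted p = 0.0419), Txndc11 fell (log2 -0.44) and Slc7a11 rose to 2.28 ± 1.43 CPM. All 3 calls were lost when NX replicate 1, 2 or 4 or any Sham replicate was left out. Over all genes, 123 higher and 64 lower calls became 13 and 6, 22 and 7, and 29 and 23 without those NX replicates. Without Sham replicate 1 they were 90 and 61. Of the 17 other symbols whose promoter holds the exact ERSE, a set formed after the data had been seen, 11 were tested in kidney. Only Hnrnpa3, an RNA-binding protein, was called between AVF+NX and NX (log2 0.27, SE 0.07), and the median of the 11 was 0.09. Against Sham, Hnrnpa3 and Birc5 rose in AVF+NX kidneys, where 15.9% of all genes rose and 9.18% fell. In heart 9 were tested. There Canx and Dnajc3 rose and Hnrnpa3 fell (log2 -0.36) in AVF+NX against Sham, where 15.4% of all genes rose and 18.6% fell.

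**Figure D4:**
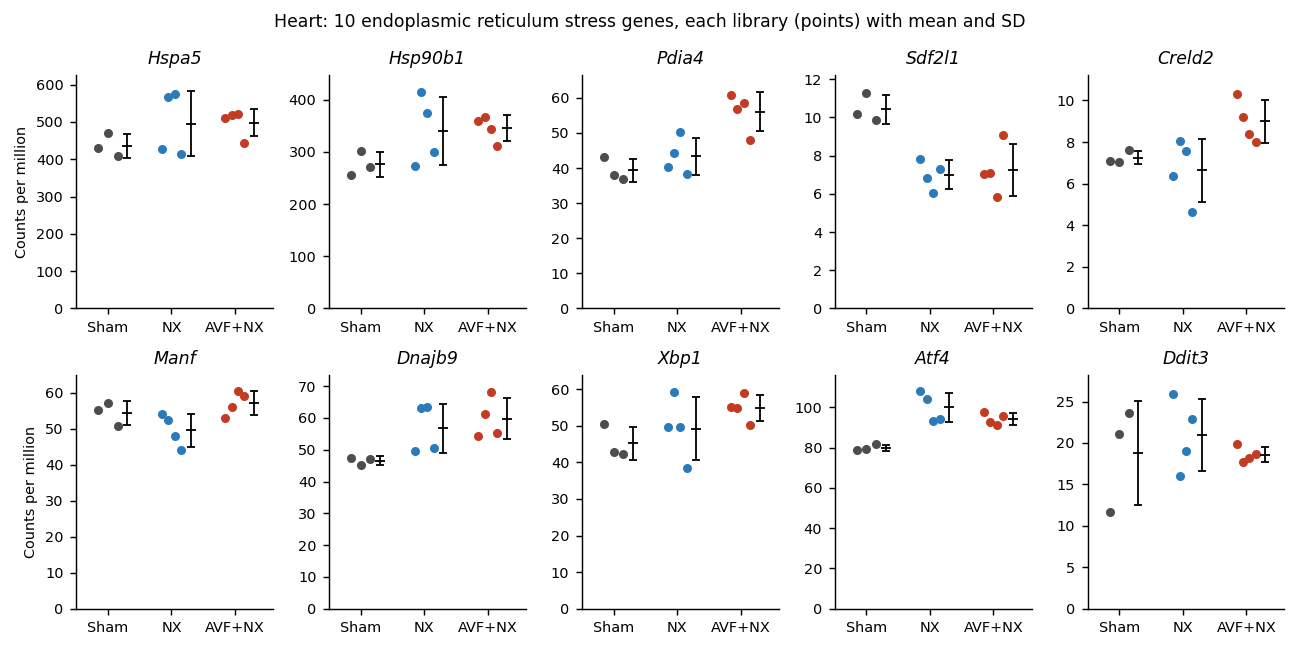
CPM of the 10 genes in each heart library (points) by surgery, with the mean and SD beside each group (n = 3 Sham, 4 NX, 4 AVF+NX). Sham points of Sdf2l1 lie above all others, and those of Atf4 and Dnajb9 lie below all others.

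In heart, 8 of the 10 genes had a fitted level above Sham in AVF+NX, and Sdf2l1 and Ddit3 did not. Against Sham, AVF+NX hearts had Pdia4, Dnajb9 and Atf4 called higher and Sdf2l1 called lower (edgeR), where 15.4% of all 12794 genes were called higher and 18.6% lower; nothing is read from that count. The median log2 fold change of the 10 genes was 0.26, against 0.01 over all genes tested. Sdf2l1 was at 10.2, 11.3 and 9.83 CPM in Sham, 7.80, 6.82, 6.03 and 7.31 in NX, and 7.05, 7.09, 5.82 and 9.08 in AVF+NX. Every Sham heart was above every operated heart, and the log2 fold change against Sham was -0.58 (SE 0.16) for NX and -0.54 (SE 0.16) for AVF+NX.

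Atf4 lay the other way. It was at 79.0, 79.1 and 81.5 CPM in Sham, 108, 104, 93.3 and 94.0 in NX, and 97.7, 92.8, 91.1 and 95.5 in AVF+NX. All 8 operated hearts were above all Sham hearts, at 1.25-fold for NX (log2 0.32, SE 0.08) and 1.18-fold for AVF+NX (log2 0.24, SE 0.08). Dnajb9 did likewise, at 47.5, 45.1 and 47.1 CPM in Sham, 49.7, 63.2, 63.4 and 50.5 in NX, and 54.2, 61.2, 68.2 and 55.3 in AVF+NX. Its NX replicates 1 and 4 were close to Sham and its NX replicates 2 and 3 were close to AVF+NX.

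Pdia4 separated AVF+NX from Sham only. It was at 43.1, 38.1 and 36.8 CPM in Sham, 40.4, 44.3, 50.1 and 38.4 in NX, and 60.7, 56.9, 58.5 and 48.1 in AVF+NX. NX overlapped both neighbours, and AVF+NX was 1.43-fold Sham (log2 0.51, SE 0.11). Creld2 was at 7.08, 7.03 and 7.62 CPM in Sham, 6.35, 8.03, 7.57 and 4.61 in NX, and 10.3, 9.22, 8.41 and 8.01 in AVF+NX, which was above Sham and touched NX. Its log2 fold change against Sham was 0.32 (SE 0.18).

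The abundant chaperones varied most among NX hearts. Hspa5 was at 429.8, 471 and 408 CPM in Sham, 427, 567, 574 and 414 in NX, and 511, 518, 521 and 443 in AVF+NX, with all groups overlapping. Hsp90b1 was at 255, 302 and 271 CPM in Sham, 273, 415, 374 and 300.1 in NX, and 359, 367, 343 and 310.4 in AVF+NX, so that AVF+NX was above Sham (log2 0.32, SE 0.13). For both, NX replicates 2 and 3 were the high NX hearts, and these are the 2 with a negative small-RNA index. The part of that index, or of depth, in these levels was not tested across surgeries, because Sham and AVF+NX hearts do not overlap in the index and cannot be told apart from it. With the index in the model the AVF+NX median against Sham was 0.04 with 0 of the 10 called. With log2 total count it was 0.07 with 0 called. Over all genes, 1975 higher and 2382 lower calls became 30 and 28 with the index, and 1 and 1 with log2 total count.

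Manf, Xbp1 and Ddit3 overlapped between all heart groups. Their log2 fold changes in AVF+NX against Sham were 0.07 (SE 0.09), 0.28 (SE 0.13) and -0.01 (SE 0.21). Ddit3 spread widely in Sham, at 11.7, 21.1 and 23.6 CPM, and lay between 17.7 and 19.8 CPM in AVF+NX. Leaving out 1 heart changed the counts of calls in AVF+NX against Sham. Without AVF+NX replicate 3, Sham replicate 1 or Sham replicate 2, 1 of the 10 genes was called. Without AVF+NX replicate 2 or Sham replicate 3, 2 were called. Over all genes, 1975 higher and 2382 lower calls became 1122 and 1602 without Sham replicate 1. Without AVF+NX replicate 3 they were 1497 and 1847.

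Markers of other cells also differed between these hearts. Summed fibroblast markers (8 of 8 found) were at 1584 to 2094 CPM in Sham, 1692 to 2597 in NX and 2476 to 3847 in AVF+NX, and 5 of the 8 rose between Sham and AVF+NX (edgeR). Endothelial sums (6 of 7 found) were at 681 to 836, 914 to 1104 and 957 to 1173 CPM, with 4 of 6 risen, and sums for dividing cells (7 of 7 found) at 7.08 to 8.95, 13.3 to 37.4 and 21.5 to 51.6 CPM, with 5 of the 6 tested risen. Sham and AVF+NX did not overlap in any of these sums, and no marker of these lists was at 0 throughout a heart group. Macrophage sums (252 to 265 CPM in Sham, 347 to 432 in AVF+NX) and T and NK cell sums (21.4 to 30.4 and 34.6 to 42.7) also lay apart. Plasma and B cell sums overlapped (6.73 to 8.79 CPM in Sham, 4.45 to 10.7 in AVF+NX), as did cardiomyocyte sums. The part of any of these cells in the levels of the 10 genes was not tested.

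For NX against Sham in heart, 0 of the 10 genes were called by edgeR (4 at an unadjusted p below 0.05, 1 by DESeq2, 0 by limma voom). Of all genes, edgeR called 0.0% in either direction, and DESeq2 called 176 higher and 168 lower. The median log2 fold change of the 10 genes was 0.15. In AVF+NX hearts against NX hearts, 0 were called by edgeR (3 at an unadjusted p below 0.05, 1 by DESeq2, 0 by limma voom). Of all genes, edgeR called 0.172% higher and 0.164% lower, and DESeq2 called 314 higher and 509 lower. All 10 ranges overlapped. Creld2 (log2 0.42, SE 0.16) and Pdia4 (log2 0.37, SE 0.10) had the highest values there, and the median was 0.06.

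The tested pathway genes went both ways in heart. Between AVF+NX and Sham, 20 of 132 rose and 20 fell, near the share of all genes, and their median log2 fold change was 0.03. Folding genes rose in 4 of 25 (Dnajc3, Canx, Pdia3 and Uggt1) and fell in 5. Dnajc3, a BiP cofactor that also curbs PERK, rose from 28.2 ± 0.898 (SD, n = 3) to 39.9 ± 0.615 CPM (n = 4; edgeR adjusted p = 0.00716), and Canx, the lectin chaperone calnexin, from 448 ± 24.5 to 616 ± 15.5 CPM (edgeR adjusted p = 0.0166). Fkbp2, a prolyl isomerase, fell from 18.7 ± 1.39 to 7.38 ± 0.485 CPM (edgeR adjusted p = 4.7e-04), and Cnpy2 fell from 35.0 ± 1.23 to 18.2 ± 1.43 CPM (edgeR adjusted p = 0.00112). Pdia6, which rose in kidney, fell from 113 ± 4.83 to 86.8 ± 7.36 CPM (edgeR adjusted p = 0.00759). Calr, Hyou1 and Dnajb11 had log2 fold changes of 0.08, -0.25 and -0.02.

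Sensors and regulators rose in 3 of 17 and fell in 1. Atf6 rose from 57.5 ± 6.41 to 73.8 ± 1.67 CPM (edgeR adjusted p = 0.0277), and Mbtps2, the protease that frees ATF6, from 6.98 ± 0.807 to 12.4 ± 0.331 CPM (edgeR adjusted p = 0.00278). Nck1 rose and Atf6b fell. Ern1 and Eif2ak3 did not pass (log2 0.26 and -0.08). Degradation genes rose in 2 of 23 and fell in 5, with Derl1, a retrotranslocation channel protein, at log2 -0.55. ATF4 and CHOP targets rose in 2 of 24 and fell in 3, with Atf5 at log2 -1.10 and Vldlr at 0.32, and Trib3, Atf3, Asns and Ppp1r15a at 0.01, -0.17, 0.66 and -0.00. The cell death list rose in 3 of 8, among them Dapk1 and Casp12, and translocation genes rose in 6 of 35 and fell in 6. Of 15 cytosolic and mitochondrial chaperones 3 rose, among them Hspa8 (log2 0.81), and 7 fell, such as Dnajb1 (log2 -0.68). The pathway count fell from 40 to 22 without Sham replicate 1 and to 19 without Sham replicate 3. It fell to 2 with the small-RNA index in the model, and to 0 with log2 total count. Over all genes, 1975 higher and 2382 lower calls became 1122 and 1602, and 1185 and 1609, without those Sham replicates. With the index they were 30 and 28, and with log2 total count 1 and 1. In the other heart comparisons 0 pathway genes were called by edgeR. For NX against Sham 33 had an unadjusted p below 0.05, 7 were called by DESeq2 and 0 by limma voom. For AVF+NX against NX these were 23, 8 and 0. Over all genes DESeq2 called 176 higher and 168 lower, and 314 and 509, in the same order.

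The organs were compared through the log2 fold change in heart less that in kidney. For AVF+NX against Sham this difference was -1.80 (log2, SE 0.27) for Sdf2l1 and 0.60 (SE 0.18) for Dnajb9, the 2 of the 10 genes called, from which nothing is read as these values were in view when the genes were chosen, where 13.3% of 15222 genes were called with a higher and 14.6% with a lower value in heart. Sdf2l1 was below Sham in heart and above Sham in kidney, and Dnajb9 the reverse, though its kidney ranges overlapped. The other 8 genes had differences from -0.21 (SE 0.22, Creld2) to 0.26 (SE 0.20, Xbp1). For NX against Sham, 0 of the 10 were called (5 at an unadjusted p below 0.05, 2 by DESeq2, 0 by limma voom), with 0.0788% of genes called in each direction, and the differences ran from -0.93 (SE 0.27, Sdf2l1) to 0.61 (SE 0.18, Dnajb9). In the comparison of AVF+NX with NX, 0 were called (2 at an unadjusted p below 0.05, 1 by DESeq2, 0 by limma voom), with 0.25% higher and 0.867% lower, and all 10 differences were below 0.

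Of 136 tested pathway genes, 47 differed between the organs for AVF+NX against Sham. Their log2 fold change was higher in heart for 21 and lower for 26. Of all genes, 13.3% were called higher and 14.6% lower. All 3 sensors were among those with a higher log2 fold change in heart. The differences were 0.63 for Atf6 (edgeR adjusted p = 0.00568), 0.36 for Ern1 (edgeR adjusted p = 0.0281) and 0.34 for Eif2ak3 (edgeR adjusted p = 0.0443). Within heart, Ern1 and Eif2ak3 did not pass against Sham, and Eif2ak3 fell in kidney. In the whole list of sensors and regulators, 6 of 17 were called higher and 3 lower. Pdia6 (-0.65) and Fkbp2 (-1.46) had a lower log2 fold change in heart. Between AVF+NX and NX, 3 of 136 differed, where 0.25% of all genes were called higher and 0.867% lower. All 3 had a lower log2 fold change in heart: Pdia6 (-0.48), Fkbp2 (-1.02) and Eif4ebp1, a translation repressor and ATF4 target (-1.02). For NX against Sham 0 differed by edgeR, with 30 at an unadjusted p below 0.05, 6 by DESeq2 and 0 by limma voom. The 47 became 3 with the small-RNA index and 9 with log2 total count in the model.

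How the 10 genes vary among rats of 1 group was described by correlating log2 CPM after taking away the group mean. In kidney (12 libraries) the 45 pairs had a median Pearson r of 0.41, with 41 pairs above 0, and in heart (11 libraries) a median of 0.22 with 28 above 0. Pairs of these genes with all other genes had medians of 0.01 and -0.00. The closest pairs were Hspa5 with Hsp90b1 in heart (0.91) and Creld2 with Pdia4 in kidney (0.86). Sdf2l1 and Ddit3 ran against the others in heart, with mean r of -0.27 each, and with them in kidney (0.25 each). The points share library, depth and RNA quality, so these are descriptions only. The genes most like the set were Zfp131, Zcchc8, Gle1, Med13, Ppm1a and AABR07054000.1 in heart (mean r 0.45 to 0.46), and Ribc2, Fbxl8, AABR07008016.1, Armc3, Glyatl1 and Mpnd in kidney (mean r 0.57 to 0.58). None of these 12 was on a pathway list.

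**Figure D5:**
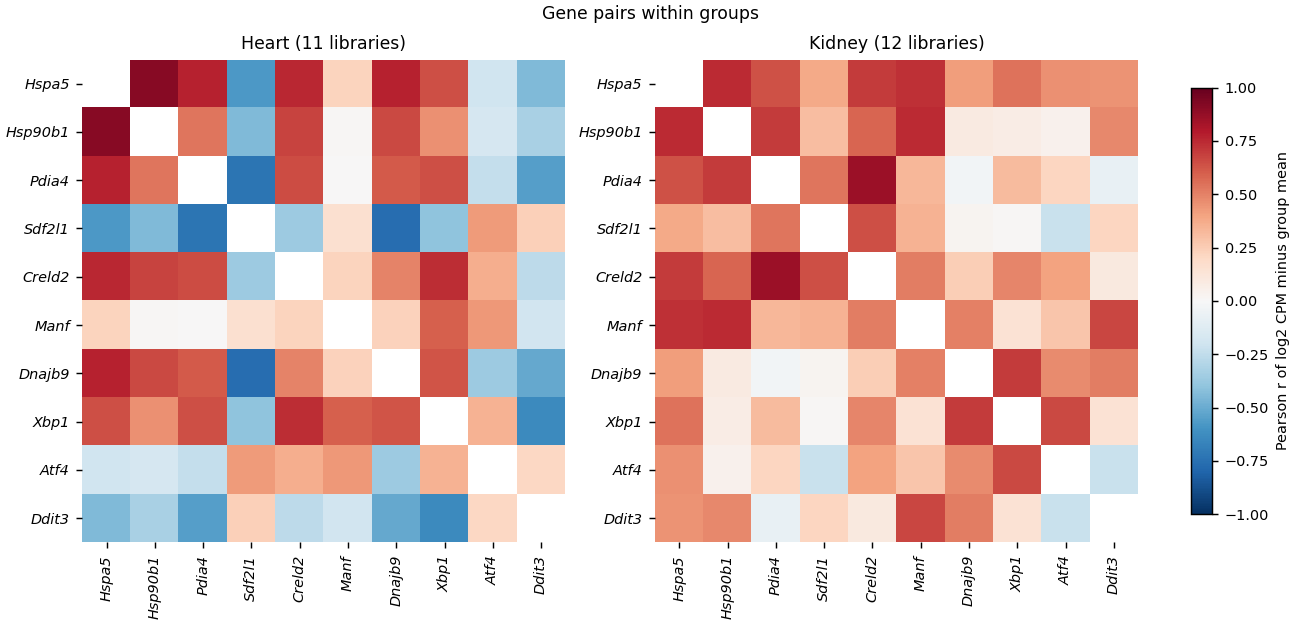
Pearson r between pairs of the 10 genes over the heart (left) and kidney (right) libraries, on log2 CPM with the group mean removed (colour scale from -1 to 1). Kidney pairs are mostly above 0 (41 of 45), whereas Sdf2l1 and Ddit3 are below 0 with most others in heart.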

How the data were processed

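Strand-specific libraries were made from poly(A) RNA, per the labels' protocols. Read counts per gene, as whole numbers, are what the authors deposited. The submitters' processing notes list Trimmomatic 0.36, STAR 2.5.2b, featureCounts and Subread 1.5.2. Genome build, annotation release and strand setting of the counting were not given in the sources at hand. In the same deposit, the authors' deposited tables also hold log2 fold changes with p-values, whose test is not stated, and a normalised signal per library. That deposited signal equalled the count times 1 factor per column in 46 of 46 columns, to a relative spread of 1e-14. The log2 fold changes, p-values and signal were not used for results. In the authors' deposited tables, members called at an adjusted p below 0.05 numbered 0 for NX vs Sham, 6 for AVF+NX vs Sham and 0 for AVF+NX vs NX in heart, and 1, 4 and 5 in kidney. Nothing is read from these counts, as the members were chosen with results of these data in view. The share of all genes called in the authors' tables was not counted here.

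Symbols came from the authors' deposited tables. No replicates were merged, since the chi-square over degrees of freedom between any pair was 6.49 or more. The sample titles call them biological replicates. The edgeR package (4.0.16, under R 4.3.3) fitted each organ's 3 groups, with filterByExpr, TMM scaling and robust quasi-likelihood F tests. A gene was called at a Benjamini-Hochberg adjusted p below 0.05, over all genes tested. Standard errors belong to the same fits. Organ differences came from 1 fit of 23 libraries. The typical coefficient of variation between replicates was 0.156 in heart and 0.176 in kidney. The scripts were tested on simulated data.

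The members and the gene lists were chosen with earlier results of these data known. Of the pathway lists, 144 genes were listed. Named genes were all members, up to 4 called genes with the smallest p per list and comparison, and 12 set by name; the text prints a part of them, and the names beyond the rule (such as Phgdh, Sesn2 and Uggt1) were picked after their values were seen. Genes most like the members were ranked by mean r on log2 CPM (prior count 2), over genes of at least 1 CPM with a symbol. Scaling the printed CPM within an organ, the ERSE gene set and the fit of all 23 libraries as an alternative were chosen after seeing the data. Replicate numbers were not taken to pair samples (see the dependence on processing). Alternatives were DESeq2 1.42.0 and its size factors, limma 3.58.1 voom, no count filter, a replicate block, the small-RNA index or log2 total count as covariate, only the 2 groups, and each library left out.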

Additional observations from a re-analysis of the deposited data

Results flagged for a closer look

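Of 350 gene-by-group sets of 4 libraries, 23 had 1 library far from the other 3 (gap over range above Dixon's 95% critical value), and chance flags about 1 in 20. Among the 10 genes these were Pdia4 (124 CPM) and Hspa5 (557 CPM) in kidney NX replicate 1, both high, and Hspa5 (443 CPM) in heart AVF+NX replicate 4, which was low. In kidney AVF+NX replicate 2 the values set apart were Atf5 (36.9 CPM), Crebrf (102 CPM), Ppp1r15a (60.4 CPM) and Ssr4 (58.4 CPM). In the other AVF+NX kidneys they were Casp12 in replicate 1 (11.9 CPM) and Txndc11 in replicate 4 (65.6 CPM). In NX kidneys they were Srp19 in replicate 2 (12.6 CPM), and Sil1 (40.6 CPM) and Spcs3 (128 CPM) in replicate 4. In Sham kidneys they were Dnajb11 (84.0 CPM), Wars (48.3 CPM) and Tmbim6 (936 CPM) in replicate 1, Asns (22.99 CPM) and Ssr4 (51.2 CPM) in replicate 2, and Ssr2 (58.0 CPM) in replicate 3. In hearts they were Trib3 in NX replicate 1 (2.498 CPM), Herpud1 (215 CPM) and Tmbim6 (166 CPM) in NX replicate 2, Selenok in AVF+NX replicate 2 (22.5 CPM) and Cebpb in AVF+NX replicate 3 (13.9 CPM).

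The log2 fold change in heart less that in kidney, for AVF+NX against Sham, was -1.80 for Sdf2l1 and 0.60 for Dnajb9, given as a description since these genes were chosen with such values in view. Of the 47 other pathway genes called in the edgeR test of this difference, those named here are the ones in the rule for named genes. Genes with a higher log2 fold change in heart were Spcs1 (1.15), Crebrf (0.73), Itpr1 (0.68), Atf6 (0.63), Ern1 (0.36) and Eif2ak3 (0.34). Hspa8, a cytosolic chaperone outside the pathway lists, also had a higher log2 fold change in heart (1.40). Genes with a lower log2 fold change in heart were Fkbp2 (-1.46), Eif4ebp1 (-1.28), Bak1 (-0.97) and Pdia6 (-0.65). Against NX, the 3 genes called had differences of -1.02 for Fkbp2, -1.02 for Eif4ebp1 and -0.48 for Pdia6.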

How the results depend on the processing

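No called value changed sign under the alternatives run, and where calls or medians moved the cause was not tested. With DESeq2, pathway calls became 7 (heart NX vs Sham), 8 (heart AVF+NX vs NX), 7 (kidney NX vs Sham) and 11 (kidney AVF+NX vs NX). For the organ difference they were 6 (NX vs Sham) and 7 (AVF+NX vs NX). Over all genes in those heart comparisons, DESeq2 called 176 higher and 168 lower, and 314 and 509. In those kidney comparisons DESeq2 called 495 and 340, and 1151 and 370. Its size factors in edgeR gave 1 for heart AVF+NX vs NX, and no count filter gave 2 there and 2 for kidney AVF+NX vs NX. Limma voom gave 0 for kidney NX vs Sham. With the small-RNA index as covariate, pathway calls were 2 (heart AVF+NX vs Sham), 0 (kidney NX vs Sham), 0 (kidney AVF+NX vs NX), and 3 (AVF+NX vs Sham) and 0 (AVF+NX vs NX) for the organ difference, while the median log2 fold change of the 10 genes was 0.0248 (heart NX vs Sham), 0.0438 (heart AVF+NX vs Sham) and 0.22 (kidney AVF+NX vs NX, with 0 of 10 called). With log2 total count they were 0 and a median of 0.0682 (heart AVF+NX vs Sham), and 9 and 1 for the organ difference (AVF+NX vs Sham, AVF+NX vs NX). A fit of only the 2 groups gave 62 (heart AVF+NX vs Sham) and 0 (kidney AVF+NX vs NX). The fit of all 23 libraries, added after seeing the data, gave 2 (heart NX vs Sham) and 8 (kidney AVF+NX vs NX). Calls over all genes moved too. In heart AVF+NX vs Sham, 1975 higher and 2382 lower became 30 and 28 with the index, and 1 and 1 with log2 total count. A fit of only the 2 groups gave 2625 and 2844 there. In kidney AVF+NX vs NX, 698 and 172 became 14 and 0 with the index, and 235 and 32 with only the 2 groups.

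The labels name no shared animal or day, and not every same-numbered pair had r above 0.1 (from -0.12 to 0.38; kidney replicates 1 and 3 did in all 3 pairs), so the numbers were not taken to pair libraries. With the replicate block, 6 of the 10 genes were called in heart AVF+NX vs Sham (4 without it), 5 in kidney AVF+NX vs NX (4 without it), and 2 and 1 in the organ difference for NX vs Sham and AVF+NX vs NX (0 without it). With the replicate block, pathway calls were 1, 51 and 0 in heart (NX vs Sham, AVF+NX vs Sham, AVF+NX vs NX). They were 7, 38 and 10 in kidney, and 2, 58 and 5 for the organ difference. Over all genes, higher and lower calls with the block were 23 and 38, 2100 and 2476, and 19 and 21 in heart. In kidney they were 367 and 302, 2465 and 1761, and 1148 and 499. The medians of the 10 genes with the block were 0.20, 0.31 and 0.06 in heart and -0.13, 0.23 and 0.37 in kidney.

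Leaving out 1 library at a time gave pathway calls of 0 to 7 (heart NX vs Sham, highest without NX replicate 1), 19 to 47 (heart AVF+NX vs Sham, 40 in full, 22 without Sham replicate 1 and 19 without Sham replicate 3) and 0 to 7 (heart AVF+NX vs NX, highest without NX replicate 2, and 4 without NX replicate 3). In kidney these were 0 to 4 (NX vs Sham, 3 in full, 1 or 0 without any NX replicate but the third or any Sham replicate), 17 to 37 (AVF+NX vs Sham, 28 in full, 17 or 18 without AVF+NX replicate 1 or Sham replicate 2, 3 or 4) and 0 to 6 (AVF+NX vs NX, 4 in full, 2 or fewer without AVF+NX replicate 1 or 4, NX replicate 2 or 3, or any Sham replicate). For the organ difference they were 0 to 5 (NX vs Sham, 5 without heart NX replicate 1), 33 to 50 (AVF+NX vs Sham) and 0 to 8 (AVF+NX vs NX, 3 in full, 8 without heart NX replicate 2). Members called in kidney AVF+NX vs NX numbered 2 without AVF+NX replicate 1 or 4 or NX replicate 3. Calls over all genes moved too, there from 698 higher and 172 lower to 295 and 29 without AVF+NX replicate 1. In heart AVF+NX vs Sham they went from 1975 and 2382 to 1185 and 1609 without Sham replicate 3. Medians of the 10 genes stayed within 0.12 to 0.21, 0.25 to 0.29 and 0.04 to 0.13 in heart and -0.20 to -0.09, 0.19 to 0.27 and 0.35 to 0.43 in kidney.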
